A study of Homo sapiens with 3 samples.

Results

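The transcripts described are those of 44 genes for proteins of the large subunit of the cytoplasmic ribosome, from RPL3 to RPLP2, studied for the places where they were crosslinked to HNRNPA0. They were chosen by the Ensembl gene ID that each deposited peak carries, and pseudogenes and RPL-like genes were left out. The peak lists named 6583 gene IDs in all, and each of the 44 genes held at least 1 peak. The data are 3 easyCLIP replicates, numbered 1 to 3, that form 1 group, with no control among the samples analysed here. In easyCLIP, RNA that UV light has bonded to a protein is pulled down with it, trimmed with RNase and sequenced. HEK293T cells, a human embryonic kidney line labelled wild type, received 750 ng of vector that encodes HNRNPA0 with an HA tag. They were irradiated at 254 nm and 0.3 J/cm2, and the protein was pulled down with anti-HA beads. The protein was thus expressed from a vector in every replicate, beside the cells' own. Nothing states that the replicates came from separate cultures, so the spread between them may be technical. Per the labels, the replicates were pooled after the first adapter had been ligated and were handled together from there.

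Each ribosomal protein is made in the cytoplasm, imported into the nucleus and built onto ribosomal RNA in the nucleolus before the finished subunit is exported. The large subunit carries the peptidyl transferase centre, the exit tunnel for the growing peptide and the acidic stalk that recruits elongation factors. Their messenger RNAs are among the most abundant in growing cells, and many start with a terminal oligopyrimidine tract, a C followed by further pyrimidines, through which growth signals control their translation. Many of their introns also hold small nucleolar RNAs (snoRNAs), which guide the chemical modification of ribosomal RNA. HNRNPA0 belongs to the hnRNP A/B proteins and is known for binding AU-rich stretches of messenger RNAs.

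The sequences around the transcription start are shown because the pyrimidine tract is a feature that many of these genes share at the RNA level, and because the crosslinking peaks can be placed against it. RefSeq (GRCh38.p14) gave start sequences for 37 of the 44 genes, with 49 starts in all. Each line below runs from 15 bases before the start to 15 bases after it, 5′ to 3′ on the transcript strand. Capitals mark the unbroken run of C and T that begins at the first transcribed base.
RPL26, chr17:8383179-8383208, minus strand: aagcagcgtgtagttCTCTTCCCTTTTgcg
RPL7A, chr9:133348203-133348232, plus strand: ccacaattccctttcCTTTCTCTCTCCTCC
RPL13A, chr19:49487593-49487622, plus strand: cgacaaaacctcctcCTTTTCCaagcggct
RPLP0, chr12:120201097-120201126, minus strand: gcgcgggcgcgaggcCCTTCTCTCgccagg
RPL4, chr15:66504841-66504870, minus strand: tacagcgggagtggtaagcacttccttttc
The run is 12 bases long at RPL26, 16 at RPL7A, where it goes past the end of the line, 7 at RPL13A and 9 at RPLP0. At RPL4 the listed start has no such run at its first base, but its line ends in a run of C and T that begins further downstream. Only runs at the first base of a listed start were counted. Of the 49 starts, 27 (55.1%) began with C and continued in C or T for at least 5 bases in all, against 4.07% of the 35116 starts of all genes in the table, searched on the transcript strand. The tract is not particular to the large subunit: 20 of 29 starts (69.0%) of the small-subunit genes had such a run. Starts of 1 gene lie close together and share sequence, so these shares are descriptions.

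Of the 427 peaks of the 44 genes, 9 (2.11%) began within 50 nt of the outermost RefSeq 5′ end of the gene, with read numbers of 3 or 4. The same was true of 0.656% of 6098 peaks in other protein-coding genes of the same range of lengths and of 1.76% of 340 peaks in genes of the small subunit, and these differences were not tested. None of the 9 lay in a place shared by all 3 replicates. A peak of RPL4 with a read number of 10, in replicate 2, began just outside this limit, 51 nt from the 5′ end. Other listed starts of a gene were not counted here. The read number is the whole number that ends the name of each deposited peak, taken as its reads, and 3 is the lowest value in the lists. The shared place nearest to a 5′ end was in RPLP0 and began 263 nt from it.

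The 44 genes held 149, 143 and 135 peaks in replicates 1, 2 and 3. Their summed read numbers were 1139, 1140 and 1009, out of 100038, 99141 and 114203 in all peaks outside the mitochondrial genome. That is 1.14%, 1.15% and 0.884% of the nuclear-encoded read numbers, with a mean of 1.06% ± 0.151 (SD, n = 3). Replicate 3 had the lowest share although its list was the longest. The median read number was 5 in each replicate against 4 over all nuclear-encoded peaks. A read number of 3 was found in 23.4% ± 1.28 of their peaks, against 43.7% ± 1.76 of all nuclear-encoded peaks, and one of 20 or more in 6.71% ± 2.65 against 3.18% ± 0.341 (SD, n = 3). Of 7 genes listed as typical of HEK293 lines, VIM and NEFM had peaks, and NEFL, NEFH, KRT8, KRT18 and PAX2 had none. Summed read numbers were 42, 58 and 32 for VIM and 3, 6 and 3 for NEFM. None of 10 genes of other tissues had a peak. With so few markers these counts do not settle the cell label.

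Within a gene ID, peaks from the 3 lists were joined into a region wherever they overlapped, by as little as 1 bp, and a region with a peak from every replicate is called recurrent here. Of the 44 genes, 22 held a recurrent region, against 6.05% of 20043 protein-coding genes and 21.4% of the 6566 gene IDs with any nuclear-encoded peak. Among the 7524 other protein-coding genes whose length lies between those of the shortest and longest of the 44, at 1335 and 17436 bp, 3.26% did. RNA levels were not measured, so these counts do not separate binding from the abundance of the transcripts. There were 49 recurrent regions, with 10 in RPL4, 4 each in RPL5 and RPL15, 2 in each of 12 genes and 1 in each of 7. A further 61 regions held peaks of 2 replicates and 140 held a peak of 1. The recurrent regions were 27 to 171 nt wide, with a median of 93 nt. Taking the highest peak of each replicate and averaging over replicates, their read numbers ranged from 3.67 to 46.7 around a median of 8.33, and 23 regions in 6 genes reached 10 or more.

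**Figure D1:**
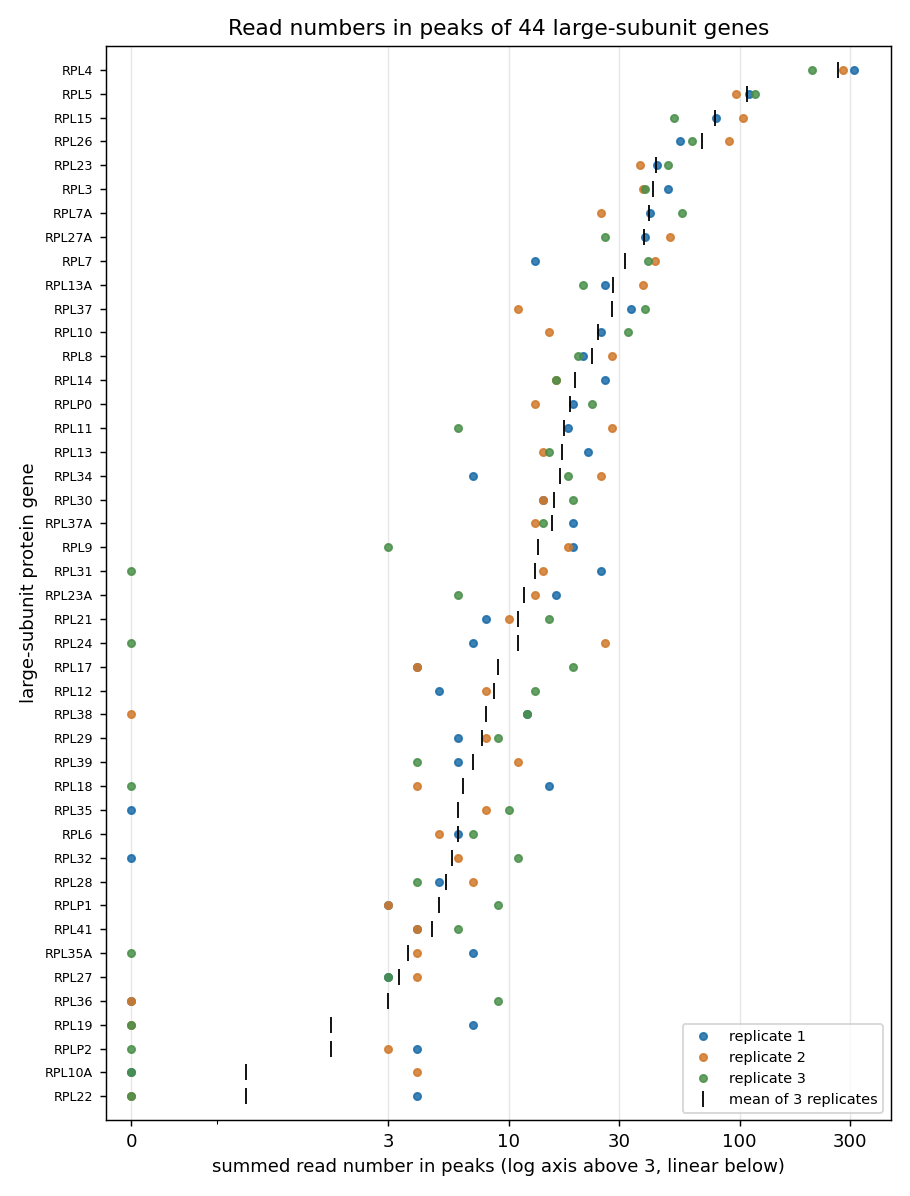
Summed read number in peaks for each of the 44 large-subunit genes, 1 dot per replicate and a tick for the mean of 3 replicates, on an axis that is logarithmic above 3 and linear below. RPL4 stands at the top with 312, 279 and 205, and RPL10A and RPL22 at the bottom with peaks in a single replicate.

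A few genes held most of the signal. The 5 genes with the highest read numbers, RPL4, RPL5, RPL15, RPL26 and RPL23, took 51.2% of the summed read numbers of the 44, and the first 10 took 67.8%. The median gene had a summed read number of 12.3 (mean over replicates). Across the 44 genes the Spearman correlation of summed read numbers was 0.81 between replicates 1 and 2, 0.67 between 1 and 3 and 0.69 between 2 and 3. Across the 49 recurrent regions it was 0.84, 0.82 and 0.80. Regions were chosen for recurring and share genes and libraries, so these values describe the lists.

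RPL4, whose protein lines the peptide exit tunnel with a long internal loop, held by far the most. Its gene lies on chromosome 15 from 66498015 to 66504855 (hg38, minus strand) and spans 6841 bp. It had 15, 14 and 11 peaks with summed read numbers of 312, 279 and 205 in replicates 1, 2 and 3, which is 24.1% of the read numbers of the 44 genes. Of all protein-coding genes, SLIT2, EIF4G2, NUCKS1 and NAP1L1 held more recurrent regions than its 10, and HNRNPA1 and HNRNPA2B1 held as many.

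The strongest region of RPL4, which is also the strongest of the 44 genes, ran from 66503059 to 66503164 and had read numbers of 42, 44 and 54. The short stretch that the lists mark inside each peak, most often 4 nt long, lay within 2 nt in the 3 replicates there. The next by read number, from 66500293 to 66500377, had 29, 28 and 18. All 3 replicates thus placed their highest peak of the gene in the same stretch of 106 nt.

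The other regions of RPL4 spread over the middle of the gene. From 66502612 to 66502743 the read numbers were 34, 21 and 18, and from 66503357 to 66503438 they were 21, 25 and 26. From 66501373 to 66501501 they were 29, 19 and 19, from 66500949 to 66501041 25, 19 and 16, and from 66499516 to 66499653 23, 25 and 10. The remaining 3, at 66500129 to 66500178, 66500056 to 66500095 and 66501887 to 66501913, were narrow and had means of 14.3, 12.7 and 11.3. In the first 2 of these the marked stretches of the 3 replicates lay within 1.5 and 1 nt of each other, the closest agreement of any recurrent region of the 44 genes together with that at 66503059. Most regions agreed less closely, and in RPL4 the spread reached 70 nt, at 66499516. Over the recurrent regions of the 44 genes the median spread was 30 nt, against 22 nt in 2417 other nuclear regions. It was within 10 nt in 14.3% of them, against 21.2% of the others.

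The 10 regions of RPL4 began 1417 to 5202 nt from the 5′ end, and its first 1417 nt and last 1501 nt held none. RPL4 also hosts 4 snoRNAs, SNORD18A, SNORD16, SNORD18B and SNORD18C, and none of the 10 regions overlapped one. Several came close: the region at 66503357 lay 43 nt from the nearest snoRNA, that at 66501373 55 nt, that at 66502612 68 nt and the strongest 81 nt. Under the ID of RPL4, SNORD16 had a peak with a read number of 15 in replicate 2 and none in the others. With the files at hand exons and introns could not be told apart, so these regions are not assigned to spliced or unspliced RNA.

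RPL5 and RPL11 bind the small 5S ribosomal RNA and bring it to the nascent subunit, and both can restrain the p53 regulator MDM2 when assembly fails. RPL5, on chromosome 1 from 92831986 to 92841924 (plus strand), had summed read numbers of 110, 96 and 116. Its 4 recurrent regions had read numbers of 22, 24 and 21 from 92834779 to 92834913, of 22, 19 and 13 from 92837500 to 92837624, of 19, 21 and 18 from 92840560 to 92840640, and of 13, 18 and 14 from 92841766 to 92841808. The last of these ended 116 nt from the 3′ end. RPL11 held 1 region, from 23692642 to 23692759 on chromosome 1, with read numbers of 4, 7 and 3. It was no longer recurrent when peaks had to overlap by 50% of both, in the 50% of each list with the lowest p-values, or at read numbers of 5 or more. The partners in the 5S particle thus differed in summed read number, 96 to 116 for RPL5 against 6 to 28 for RPL11, and the 3 values did not overlap. The RPL5 gene spans 9939 bp and that of RPL11 5057 bp, and read numbers are not set per length here.

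RPL15, a core protein of the subunit that binds ribosomal RNA early, held 4 recurrent regions on chromosome 3. The strongest, from 23919359 to 23919475, had read numbers of 17, 16 and 14. The others had 9, 20 and 11 from 23918440 to 23918578, 10, 20 and 6 from 23919195 to 23919242, and 5, 8 and 9 from 23917951 to 23918032. RPL15 also held the strongest place that 1 replicate missed. From 23920050 to 23920191 the read numbers were 21 and 23 in replicates 1 and 2, and replicate 3 had no peak. Its summed read numbers were 79, 103 and 52, with replicate 3 the lowest.

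RPL26, which binds near the exit of the tunnel and has been described as a regulator of p53 translation, carried its main peak at the 3′ end. The region, on chromosome 17 from 8377542 to 8377693 (minus strand), ended 26 nt from the 3′ end of the gene and had read numbers of 32, 33 and 37, so that the replicates lay close together. A second region, from 8379795 to 8379922, had 16 in each replicate. RPL23, on the face that joins the small subunit and another protein that can bind MDM2, held 2 regions. They ran from 38850096 to 38850215, with read numbers of 14, 10 and 20, and from 38850360 to 38850431, with 16, 9 and 15.

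Regions of lower read number lay in RPL3, which reaches into the peptidyl transferase centre, and in RPL27A, RPL7 and RPL8. RPL3 had 4, 8 and 7 from 39316704 to 39316778 on chromosome 22 and 4, 7 and 4 from 39315524 to 39315556. RPL27A had 10, 6 and 4 from 8684004 to 8684079 on chromosome 11 and 3, 5 and 5 from 8687318 to 8687396. RPL7 had 6, 13 and 5 from 73291550 to 73291662 on chromosome 8 and 7, 6 and 5 from 73291769 to 73291815. RPL8, a protein of the peptidyl transferase centre, had 10, 10 and 5 from 144789793 to 144789963 on chromosome 8, which ended 24 nt from the 3′ end of the gene, and 6, 6 and 5 from 144791311 to 144791476. RPL8 no longer held a recurrent region when peaks had to overlap by 50% of both, RPL3 lost its regions in the 50% of each list with the lowest p-values, and RPL3 and RPL27A lost theirs at read numbers of 5 or more.

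The stalk genes differed among themselves. RPLP0, the anchor of the stalk, held 1 recurrent region on chromosome 12 from 120200730 to 120200848, with read numbers of 5, 4 and 8, which was lost in the 50% of each list with the lowest p-values and at read numbers of 5 or more. RPLP1 had peaks in each replicate, with summed read numbers of 3, 3 and 9, that did not recur in 1 place. RPLP2 had summed read numbers of 4, 3 and 0. In all 3 replicates RPLP0, with summed read numbers of 19, 13 and 23, was above its partners, and its mean of 18.3 was above the 12.3 of the median gene.

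At the other end, 32 of the 44 genes had a peak in every replicate, 8 in 2 and 4 in 1. The same counts over all genes are not given here, so these describe the 44 only. Of 33 genes of the small subunit, 32 had a peak in at least 1 replicate. The 4 genes with peaks in a single replicate were RPL10A, RPL19, RPL22 and RPL36, with summed read numbers of 4, 7, 4 and 9 there. Many cells tolerate the loss of RPL22, and its gene is among the longest of the 44 at 14576 bp. Over the 44 genes the Spearman correlation of gene length with summed read number was 0.28 and with the number of recurrent regions -0.025. A gene with no peak in a list may still have been bound below the level at which peaks were called.

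Recurrence was higher at higher read numbers, among these transcripts and in the lists as a whole. Of their peaks with a read number of 3, 15.1% ± 3.70 lay in a recurrent region, against 3.43% ± 0.398 over all nuclear-encoded gene IDs. For 4 to 9 the shares were 29.6% ± 2.33 and 16.2% ± 0.584, and for 10 to 19 73.7% ± 1.11 and 57.1% ± 1.29. For 20 or more they were 91.8% ± 7.73 and 88.1% ± 1.41 (SD, n = 3 throughout). The values of the 3 replicates did not overlap between the sets below 20. A recurrent region holds a peak of every replicate, so these values are not independent of each other. The wider set includes the 44 genes and was not matched for length. The lowest class held 37, 32 and 31 peaks of the 44 genes. The highest class held 13, 11 and 5 peaks of the 44 genes, so its share is coarse.

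**Figure D2:**
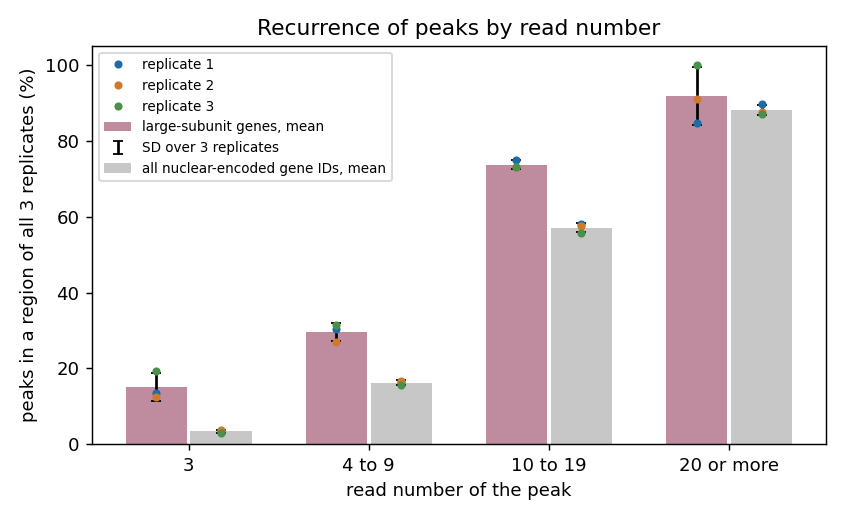
Share of peaks that lie in a region found in all 3 replicates, by read number of the peak, for the large-subunit genes and for all nuclear-encoded gene IDs; bars are means, error bars the SD over 3 replicates and dots the replicates. At a read number of 3 the means are 15.1% and 3.43%, and at 20 or more they are 91.8% and 88.1%.

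Relative to gene length, few of the regions lay at the 3′ end. Of the 49 recurrent regions, 3 (6.12%) were centred in the final 10% of the gene interval, those in RPL26, RPL8 and RPL5 that lie near the 3′ end. Over the other protein-coding genes the share was 40.7% of 2089 regions, and over those of the same range of lengths 23.1% of 497 regions. It was 16.0% of 50 regions in the genes of the small ribosomal subunit. Counted by the last 1000 bp of the gene instead, the gap to other protein-coding genes was smaller, with 14.3% for the 44 genes and 19.2% for the others. This share was 28.8% for genes of the same range of lengths and 34% for the small-subunit genes. The median region of the 44 genes lay 52.9% along the gene, against 83.5% for other protein-coding genes, 73.5% for those of the same range of lengths and 40.2% for the small-subunit genes, the lowest of these medians. The differences between these sets of regions were not tested.

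All peaks were also counted in each replicate. The final 10% of the gene held 8.05%, 4.90% and 8.15% of the peaks of the 44 genes in replicates 1, 2 and 3, and 22.0%, 21.9% and 23.4% of those of other protein-coding genes of the same range of lengths. The shares of the 44 genes include peaks beyond the 3′ end of the RefSeq interval. These were in RPL37A in replicate 1, at 264% along the gene, and in RPL27A in replicate 2, at 143%. The difference was -15.4 ± 1.53 percentage points (SD, n = 3), lower in 3 of 3 replicates, with a two-sided exact permutation p of 0.25, the smallest that 3 replicates allow. Against all other protein-coding genes it was -25.4 ± 2.56 points with the same p. The SD and p refer to replicates of the same genes and do not measure the spread between genes. Without the 10 regions of RPL4, 7.69% of the regions lay in the final 10%. Gene intervals include introns, and how exons and untranslated regions are laid out in these genes was not tested.

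**Figure D3:**
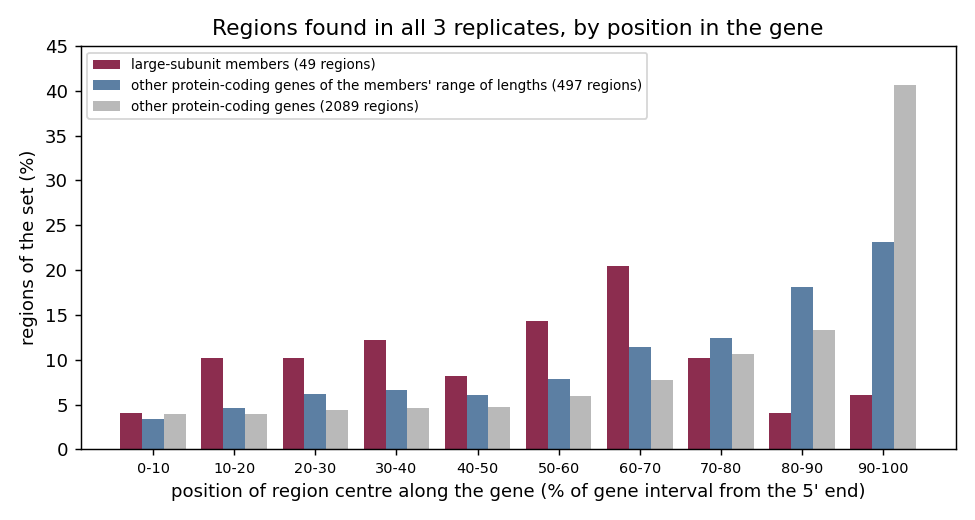
Recurrent regions by the position of their centre along the gene, in steps of 10% of the gene interval from the 5′ end, as a share of the regions of each set. The large-subunit genes peak between 60% and 70% with 20.4% of their regions, and the final step holds 6.12% of theirs, 23.1% for other protein-coding genes of the same range of lengths and 40.7% for all other protein-coding genes.

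Some of the peaks belong to snoRNAs nested in these genes as much as to the protein-coding transcript, and are given apart. RefSeq places 40 snoRNAs inside 19 of the 44 genes, 28 with names in SNORD, the box C/D class that guides 2′-O-methylation, and 12 in SNORA, the box H/ACA class that guides pseudouridylation. Of the 49 recurrent regions, 8 overlapped one of them, 5 a SNORD and 3 a SNORA. Of the read numbers of the 44 genes, 8.78% in replicate 1, 11.2% in replicate 2 and 16.4% in replicate 3 came from peaks that overlapped a nested small RNA gene. Without them, 18 genes and 41 regions were left, and RPL7A, RPL12, RPL13 and RPL13A no longer held a recurrent region.

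In RPL7A both recurrent regions lay at snoRNAs. At SNORD24 the read numbers were 10, 15 and 9, and at SNORD36C 9, 10 and 13. In RPL13A, which has a described part in silencing inflammatory messenger RNAs outside the ribosome, SNORD32A had 5, 12 and 4 and SNORD35A 6, 7 and 8. SNORD68 in RPL13 had 7, 7 and 9.

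Among the H/ACA snoRNAs, SNORA70 in RPL10 had read numbers of 6, 11 and 10, SNORA27 in RPL21 had 4, 3 and 7, and SNORA65 in RPL12 had 5, 4 and 4. RPL10, which joins the subunit late and completes it for translation, also held a region outside its snoRNA, from 154399338 to 154399398 on chromosome X, with 3, 4 and 8. RPL21 held another from 27253779 to 27253865 on chromosome 13, with 4, 3 and 4. RPL12 lies at the base of the stalk, and its only recurrent region is that of SNORA65. Neither RPL12 nor RPL21 held a recurrent region in the 50% of each list with the lowest p-values, or at read numbers of 5 or more.

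How far these peaks matched the ends of the snoRNA genes differed from snoRNA to snoRNA. At SNORD24 the peaks of the 3 replicates began 0, 2 and 0 nt before its 5′ end and each ended 2 nt beyond its 3′ end, so that all covered 100% of it. At SNORD35A replicate 1 had touching peaks that tied at a read number of 6. The first, the one measured, stopped 68 nt short of the 3′ end and covered 20.9%. The next ran on to 49491255, close to the end of the snoRNA at 49491260. At SNORD36C touching peaks of replicate 3 tied at 13, and the one measured covered 50%. Low coverage at these snoRNAs thus reflects how peaks were split. At SNORA27 the peak of replicate 2 began 50 nt inside the 5′ end. Over the 5 SNORD the highest peaks covered a median of 100% of the snoRNA, with a range of 20.9% to 100% over 15 peaks, and the median distance from the ends was 1 nt at the 5′ side and 3 nt at the 3′ side. The 3 SNORA were covered by a median of 69.1%, with 13 nt at the 5′ side and 4 nt at the 3′ side over 9 peaks. The lists do not tell mature snoRNA from the intron that contains it.

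**Figure D4:**
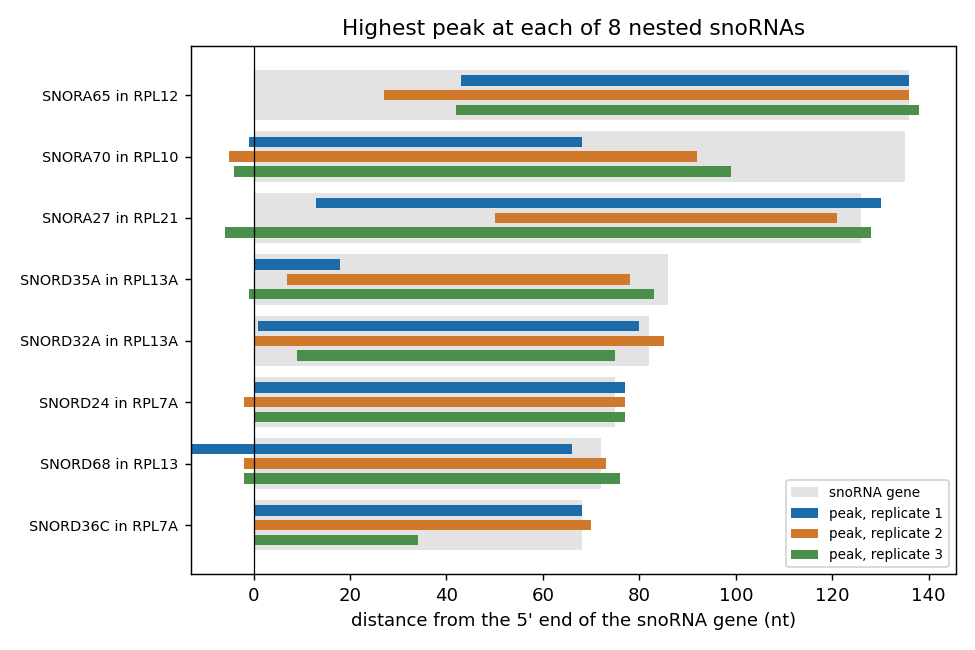
Highest peak of each replicate at the 8 snoRNAs that hold a region found in all 3 replicates, with distance from the 5′ end of the snoRNA gene in nt on the horizontal axis; grey bars are the snoRNA genes. Where touching peaks tied, as at SNORD35A in replicate 1 and SNORD36C in replicate 3, only the first is drawn. The 3 peaks at SNORD24 run from end to end, those at SNORA70 begin near its 5′ end and stop 36 to 67 nt short of its 3′ end, and those at SNORA65 begin 27 to 43 nt inside it.

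Of the 40 nested snoRNAs, 26 had a peak in at least 1 replicate, under the ID of the host or their own, and 14 had none. The share over snoRNAs in other genes is not given here. RPL17 had little else: its gene on chromosome 18 had summed read numbers of 4, 4 and 19, and the peaks of replicates 2 and 3 lay over SNORD58A, SNORD58B or SNORD58C. In RPL3, SNORD83B had read numbers of 0, 9 and 9 and SNORD83A 9, 6 and 0 under the ID of the host. RPL5, by contrast, hosts SNORD21 and SNORA66, and neither had a peak in any replicate. Of 3 nested microRNA genes, MIR6805 in RPL28 touched a peak of replicate 1 with 3.23% of its length and the other two had no peak.

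Each of the 44 genes also has processed copies in the genome. RefSeq names 1204 pseudogenes after them, up to 137 for RPL21, and 2 peaks had their centre in one, both in copies of RPL32. How reads that match both a gene and its copies were placed was not given in the sources used here, so read numbers of single genes are uncertain to that extent. The Spearman correlation of the number of copies with the summed read number was 0.037 across the 44 genes.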

How the data were processed

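The members and gene lists were chosen with earlier results of these data known. The authors deposited a separate BED list of peaks on hg38 for each replicate. Per the submitters' processing notes they used bedtools and deepTools, with no versions stated. Which aligner and peak caller were run, and whether molecular identifiers were counted, is not given in the sources used here. The deposited p-value of a peak was at most 0.0437, with no adjustment stated, and the whole number that ends its name was taken as its reads. Depth outside peaks is unknown.

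Gene IDs were tied to the RefSeq gene (GRCh38.p14) that held at least 90% of their peak centres on its strand, which placed 6238 of 6583. RPL17 and RPL26 had 2 IDs each with nearly the same peaks, and the one Ensembl gives the gene was used. A region's read number is its highest peak. Sums over all genes count lines with the same interval and strand once. The rule for genes given in full took the 10 with most recurrent regions, the 10 with the strongest region, the hosts of a recurrent snoRNA region, RPL5, RPL11 and the stalk genes. RPL10A, RPL17, RPL19, RPL22, RPL28, RPL32 and RPL36 were named after their values were seen. Code ran in Python 3.11.15 with pandas 2.3.3, numpy 2.4.6 and scipy 1.17.1, and the joining and naming of peaks were tested on simulated data.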

Additional observations from a re-analysis of the deposited data

How the results depend on the processing

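The share of regions in the final 10% of the gene moved between 4.05% and 14.3% over its 12 alternatives, the highest being the last 1000 bp in place of the final 10%. The 22 genes became 12 and the 49 regions 32 when each list was limited to the 50% of its peaks with the lowest p-values, 11 and 31 with read numbers of 5 or more, and 36 and 110 when 2 replicates sufficed. The first 2 settings only remove peaks, so the genes left there had to be among the 22. With each replicate left out in turn, 26 to 31 genes and 62 to 74 regions were counted, since a region then needed 2 lists, the share of read numbers was 1.01% to 1.14%, and the peaks were 139 to 146. An overlap of 50% of both peaks left 19 genes, without RPL8, RPL9 and RPL11, and 37 regions. Counts over all genes are not given for any of these alternative settings. Whether the large-subunit genes changed more or less than other genes was therefore not tested. The share of nuclear-encoded read numbers was 1.25% with read numbers of 5 or more, 0.435% with mitochondrial peaks in the denominator and 0.800% without RPL4. The 142 ± 7.02 peaks per replicate (SD, n = 3) became 90.0 in the stricter lists, 80.0 with read numbers of 5 or more, 124 without those at nested small RNA genes and 151 when assigned by position. The other gene ID for RPL17 and RPL26, and the settings without RPL4, were added after the data were seen. With that ID the counts stayed at 22 and 49. No paired analysis was possible because the replicates form 1 group, so that no groups share replicate numbers; the difference in position was taken between sets of genes within each replicate. Low read numbers limit these counts: 23 of the 49 regions had a mean of 10 or more.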

Other observations

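The share of genes with a recurrent region was 6.05% over all protein-coding genes, 3.26% over those of the range of lengths of the 44 genes and 21.4% over gene IDs with a peak. Of 33 genes of the small subunit 20 (60.6%) held one, with 50 regions in all, of which 42 lay outside nested small RNA genes. Of 14 other messenger RNAs described as starting with an oligopyrimidine tract 11 (78.6%) did. Of 38 genes for factors that assemble the large subunit 9 (23.7%) did, against 6.05% over all protein-coding genes. Only 28 of these factors had a peak, so their share is not comparable with the 21.4% over gene IDs with a peak. Of 49 genes for large-subunit proteins of the mitochondrial ribosome 1 (2.04%) did, MRPL42, with 2 regions, near the 3.26% over genes in the range of lengths of the 44. That range was not matched to the mitochondrial list, whose median length was 8105 bp against 5034 bp for the 44 genes. These differences were not tested, and RNA levels were not measured.

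Of the 7 paralogs listed beside the 44 genes, RPL7L1 had peaks and the other six had none. RPL7L1 held 4 recurrent regions with summed read numbers of 59, 64 and 65, above those of RPL7 itself, at 13, 43 and 40, in each replicate. Read numbers are not set per length here. The RPL7 gene spans 4225 bp, and 61 pseudogenes are named after it.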
